A study of Mus musculus with 12 samples.

Results

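Goblet cells, the mucus-secreting cells of the colonic epithelium, were followed through 10 genes: 8 secreted products (Muc2, Tff3, Fcgbp, Agr2, Clca1, Zg16, Spink4 and Retnlb) and 2 transcription factors that set the fate of the cell (Atoh1 and Spdef). A gene was taken when the accession that the array files give for a probe mapped to it in a RefSeq gene table. This found 9 of the 10 genes, on 10 probes, among 23240 genes tested. Muc2 was matched to no probe and has no value here. Fcgbp had 2 probes and each other gene had 1.

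Goblet cells arise in the crypt from secretory progenitors. Atoh1, a basic helix-loop-helix factor held down by Notch signalling, commits a progenitor to the secretory lineages, and Spdef, an ETS factor that acts after it, drives goblet cell maturation. The mature cell packs gel-forming mucin with a set of partner proteins, and this load makes it depend on protein folding in the endoplasmic reticulum (ER).

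The samples were total RNA of whole colon from male C57BL/6J mice, hybridised to 12 one-colour Agilent arrays. The genotypes were WT, ATF6aKO and ATF6bKO, with deletions of Atf6 and Atf6b, a pair of ER membrane proteins that are cut to release transcription factors when unfolded protein accumulates. Mice of each genotype were untreated (UT) or drank 3% DSS (dextran sulfate sodium, a polysaccharide that damages the epithelium and causes colitis) for 3 days, which makes 6 groups of 2 arrays. The labels give neither an age nor how the alleles were made. They also leave it unsaid whether both samples of a group are different animals, so p-values measure the spread between samples, which could be technical. For WT the labels contradict each other: of its 4 samples, those called DSS in the title and source name are untreated in the description and treatment field, and the reverse. WT groups are called titled UT and titled DSS, and no WT difference is given as an effect of DSS. Each genotype was hybridised on a slide of its own, so that genotype and slide cannot be told apart, whereas DSS and UT arrays of a genotype shared a slide. The WT arrays carry version 1 of the array design and all knockout arrays version 2. In such whole-tissue samples fewer goblet cells and less RNA per goblet cell cannot be told apart.

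Between 66.0% and 76.9% of spots were well above background and no spot was saturated. Array brightness went with genotype: the 75th percentile of the processed signal was 246 to 392 on ATF6bKO arrays, 449 to 620 on ATF6aKO arrays and 686 to 1186 on WT arrays, and within each knockout it was lower on both DSS arrays than on both UT arrays. Levels are log2 of the processed signal minus log2 of that percentile, so a level of 0 equals the 75th percentile, and differences in level depend on this scaling. The Atf6 probe had mean levels of -3.13 and -3.16 in the ATF6aKO groups and between 0.73 and 1.18 elsewhere. The Atf6b probe was at -7.06 and -5.88 in the ATF6bKO groups, above background on 1 of those 4 arrays, and between -0.74 and -0.01 elsewhere, so both deletions matched their labels. The lists of pan-epithelial and smooth muscle markers had no tested member below background on both arrays of any group. The 9 goblet cell genes were well above background on all 12 arrays.

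The RefSeq promoter table (GRCm38.p6) held 5 of the 10 genes (Muc2, Fcgbp, Agr2, Atoh1 and Spdef). The 250 bases before the start of both fate factors are shown because these genes moved together in the knockouts, with those of Agr2, a disulfide isomerase of the ER that did not pass the test there. Capitals mark matches, on either strand, to TGACGTG (the core of the unfolded protein response element), CAGCTG (an E-box) and CCAAT. The lines run 5′ to 3′ along the strand of the gene. Spdef lies at chr17:27728952-27729201 on the minus strand, Atoh1 at chr6:64728875-64729124 and Agr2 at chr12:35992675-35992924 on the plus strand.
Spdef: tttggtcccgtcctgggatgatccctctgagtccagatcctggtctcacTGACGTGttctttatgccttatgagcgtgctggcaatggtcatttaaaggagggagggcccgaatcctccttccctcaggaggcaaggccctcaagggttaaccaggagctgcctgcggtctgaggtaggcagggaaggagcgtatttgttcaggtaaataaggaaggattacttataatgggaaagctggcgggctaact
Atoh1: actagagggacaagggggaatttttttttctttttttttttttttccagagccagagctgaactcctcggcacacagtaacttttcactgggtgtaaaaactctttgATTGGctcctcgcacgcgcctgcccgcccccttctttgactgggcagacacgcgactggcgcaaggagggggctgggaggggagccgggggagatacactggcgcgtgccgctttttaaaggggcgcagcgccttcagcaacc
Agr2: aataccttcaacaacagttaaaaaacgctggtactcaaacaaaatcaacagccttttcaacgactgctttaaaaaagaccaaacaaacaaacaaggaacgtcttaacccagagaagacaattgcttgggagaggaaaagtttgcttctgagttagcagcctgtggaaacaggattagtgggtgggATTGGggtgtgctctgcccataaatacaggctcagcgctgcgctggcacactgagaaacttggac

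Spdef alone of the 5 held TGACGTG, 201 to 195 bases before the start, a motif in 1.65% of the 32851 promoters of this length. CAGCTG lay in the windows of Muc2 and Fcgbp and in 13.0% of promoters. CCAAT lay in Muc2, Agr2 (65 to 61 bases before the start) and Atoh1 (143 to 139 bases before the start), and in 33.8% of promoters. The full ER stress element (CCAAT and CCACG with 9 bases between them), which begins with CCAAT, lay in none of the 5 and in 0.113% of promoters. These matches describe the letters of the windows and no binding was measured.

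In the knockouts the fate factors fell with DSS while no secreted product passed the test. Over both knockouts Atoh1 was 2.36-fold lower and Spdef 1.66-fold lower in DSS than in UT colon, and the 7 products measured had a median log2 difference of 0.30. The fit took all 8 arrays of the knockouts, genotype being a covariate. The background was high, with 29.1% of all genes tested past an adjusted p of 0.05 (15.8% lower and 13.3% higher), so that 2 called of 9 is not above it.

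Atoh1 had levels of -0.75 and -0.61 on the ATF6aKO UT arrays and -2.48 and -1.80 on the ATF6aKO DSS arrays. In ATF6bKO its levels were -0.93 and -1.14 without and -2.12 and -1.98 with DSS. All 4 DSS arrays were therefore below all 4 UT arrays. The share of all genes with this separation was not counted. The looser condition, separation within each knockout in the same direction, held for 39.1% of all genes. Before scaling, the processed signal was 62 to 129 on the DSS arrays and 154 to 368 on the UT arrays. The difference over both knockouts was -1.24 on the log2 scale (SE 0.18, 95% interval -1.66 to -0.82, adjusted p = 0.00399). It was -1.46 within ATF6aKO (SE 0.37, adjusted p = 0.0533) and -1.02 within ATF6bKO (SE 0.37, adjusted p = 0.109), where neither passed.

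Spdef had levels of 3.17 and 2.87 on the ATF6aKO UT arrays and 1.97 and 2.27 on the ATF6aKO DSS arrays. In ATF6bKO the levels were 2.44 and 2.84 in UT and 1.95 and 2.23 in DSS. Here too every DSS array lay below every UT array, with the narrowest gap between ATF6aKO DSS and ATF6bKO UT. As for Atoh1, the share of all genes with this separation was not counted. Before scaling, the signal was 1833 and 2163 with DSS against 5579 and 4060 in ATF6aKO, and 1291 and 1155 against 2130 and 2424 in ATF6bKO. The difference over both knockouts was -0.73 (SE 0.16, 95% interval -1.10 to -0.36, adjusted p = 0.0153). Within ATF6aKO Spdef fell by 0.90 (SE 0.22, adjusted p = 0.0492), the only member called among the 9 against a background of 6.33%. Within ATF6bKO no member was called, against a background of 12.9%, and Spdef differed by -0.55 (SE 0.22, adjusted p = 0.142). At an unadjusted p under 0.05, limma gave 2 of the 9 members and 6564 of 23240 genes in that comparison, and 6 of the 9 members and 9830 of 23240 genes over both knockouts.

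Over both knockouts, the calls of Atoh1 and Spdef were kept under every alternative processing tried and without each of the 8 arrays in turn, with differences between -1.33 and -1.06 for Atoh1 and between -0.84 and -0.63 for Spdef when 1 array was left out. The call of Spdef within ATF6aKO was close to the threshold and was lost with quantile normalization (adjusted p = 0.0782), with no filter (0.0985), with the deposited value table (0.0688), with the 4 ATF6aKO arrays fitted alone (0.0643) and without any 1 of the 8 knockout arrays or the 2 WT titled DSS arrays (0.0502 to 0.309). Atoh1 within ATF6aKO passed with normexp background correction (0.0323), quantile normalization (0.0454) and a stricter filter (0.0425).

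**Figure D1:**
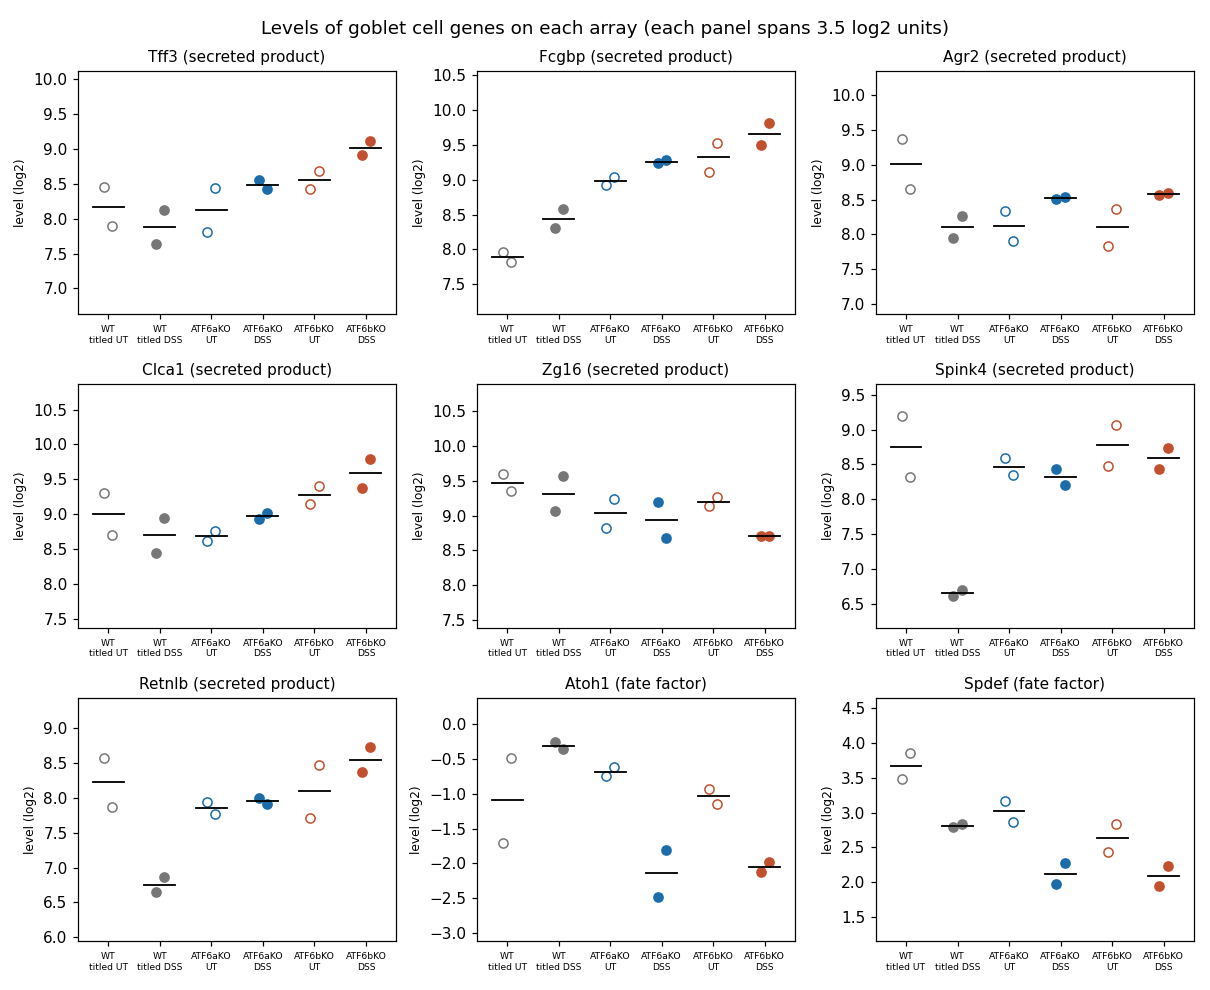
Level (log2, relative to the 75th percentile of the array) of each goblet cell gene on each of the 12 arrays, by group; open points are UT arrays and filled points DSS arrays, by title for WT, and bars are group means. Atoh1 and Spdef are lower on the DSS arrays of both knockouts, and Spink4 and Retnlb are lowest on the 2 WT arrays titled DSS.

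None of the 7 secreted products was called in the knockouts. Agr2 had levels of 8.34 and 7.91 in ATF6aKO UT, 8.51 and 8.53 in ATF6aKO DSS, 7.83 and 8.37 in ATF6bKO UT, and 8.56 and 8.59 in ATF6bKO DSS. Its DSS arrays were above its UT arrays in both genotypes on this scale, while the signals before scaling overlapped in both. The difference over both knockouts, 0.44 (95% interval 0.08 to 0.79, adjusted p = 0.0662), did not pass. It passed with normexp background correction (0.39, adjusted p = 0.0463) and without ATF6bKO UT replicate 2 (0.53, adjusted p = 0.0395).

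Tff3, a trefoil peptide that aids epithelial repair, had levels of 7.81 and 8.44 in ATF6aKO UT and 8.55 and 8.42 in ATF6aKO DSS. In ATF6bKO they were 8.43 and 8.69 in UT and 8.92 and 9.12 in DSS. On this scale the groups overlapped in ATF6aKO only, while the signals before scaling overlapped in both genotypes. The difference over both knockouts was 0.41 (95% interval 0.05 to 0.78, adjusted p = 0.0864). Without ATF6aKO UT replicate 2, the higher of its pair, the difference was 0.55 (adjusted p = 0.0266).

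Clca1, a secreted metalloprotease that reshapes the mucus layer, had a difference of 0.30 over both knockouts (95% interval 0.01 to 0.58, adjusted p = 0.107). Fcgbp, a large protein bound to the mucin network, had one of 0.30 (95% interval 0.01 to 0.60, adjusted p = 0.109), and the second Fcgbp probe gave 0.27 (adjusted p = 0.101). Retnlb, a resistin-like peptide of goblet cells with activity against bacteria and worms, had one of 0.28 (95% interval -0.17 to 0.73, adjusted p = 0.303). None of these 3 passed the test, and their intervals leave room for rises of up to 0.73 on the log2 scale. Before scaling, the signals of all 3 were lower on both ATF6aKO DSS arrays than on both ATF6aKO UT arrays, and overlapped in ATF6bKO. Among the alternative settings the lowest difference over both knockouts was 0.03 for Clca1, 0.08 for Fcgbp and 0.12 for Retnlb.

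Zg16, a lectin that binds Gram-positive bacteria in mucus, had levels of 9.13 and 9.27 in ATF6bKO UT and 8.70 and 8.71 in ATF6bKO DSS. These groups did not overlap, while those of ATF6aKO did (8.82 and 9.24 against 9.20 and 8.68). The difference over both knockouts was -0.29 (95% interval -0.69 to 0.10, adjusted p = 0.223), and it passed only with quantile normalization (-0.41, adjusted p = 0.0489) among the alternatives tried. Spink4, a Kazal-type protease inhibitor, differed by -0.16 (95% interval -0.54 to 0.21, adjusted p = 0.465).

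Counted by overlap, 5 of 9 members had separate DSS and UT arrays in ATF6aKO and 5 of 9 in ATF6bKO, against 67.2% and 63.5% of all genes. Separation in the same direction in both knockouts held for Agr2, Atoh1 and Spdef, 33.3% of members against 39.1% of all genes. The products were bright on every array, with processed signals of 75126 to 634810 where the brightest spot of an array had 446123 to 768125. The signals were 1155 to 13047 for Spdef and 62 to 993 for Atoh1.

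**Figure D2:**
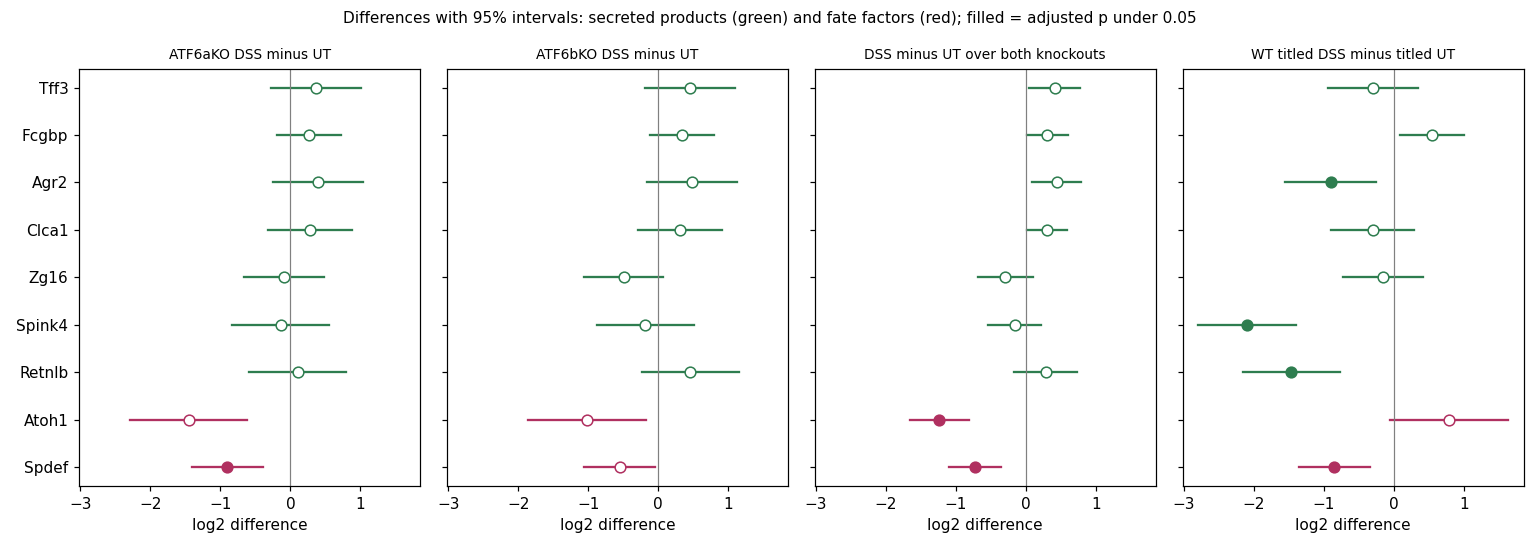
Log2 differences with 95% intervals of the 7 products (green) and 2 fate factors (red) between DSS and UT arrays in ATF6aKO, ATF6bKO, both knockouts together and WT by titles; filled points had an adjusted p under 0.05. In both knockouts the factors lie at -0.55 or below and no product is called; by WT titles Spink4, Retnlb, Agr2 and Spdef are called.

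Averaged over genes and taken from the mean of its genotype, the pair of factors deviated by -0.83 and -0.34 on the ATF6aKO DSS arrays and by -0.50 and -0.29 on the ATF6bKO DSS arrays. The mean deviation of the 7 products on these arrays was 0.14, 0.03, -0.02 and 0.21. On the knockout UT arrays the factors deviated by 0.35 to 0.63 and the products by -0.31 to 0.12. The arrays thus fell apart along the axis of the factors and overlapped along that of the products. The WT arrays did not share this layout: the factors deviated by -0.38 and 0.41 on the arrays titled UT and by 0.00 and -0.03 on those titled DSS. Over the 8 knockout arrays, levels taken from genotype means gave a Pearson r of 0.91 between Atoh1 and Spdef, 0.97 between Fcgbp and Clca1 and 0.83 between Tff3 and Clca1, against -0.78 between Agr2 and Atoh1. With the 4 WT arrays added, r was 0.46 between Atoh1 and Spdef and -0.80 between Agr2 and Atoh1. These are descriptions, over arrays that share slide and treatment.

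**Figure D3:**
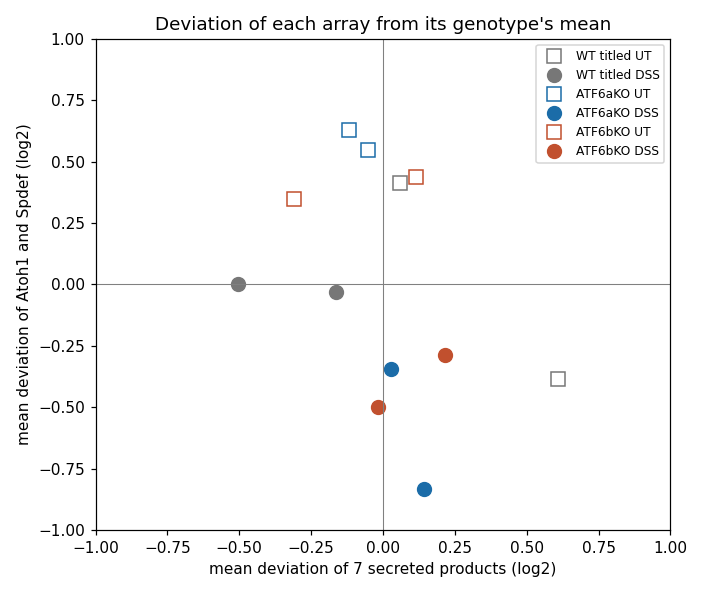
Each of the 12 arrays by the mean deviation (log2) of the 7 products (x axis) and of Atoh1 and Spdef (y axis) from the mean of its genotype; filled circles are DSS and open squares UT arrays, by title for WT. The 4 knockout DSS arrays lie between -0.83 and -0.29 on the y axis and the 4 knockout UT arrays between 0.35 and 0.63.

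In WT, 3 products and 1 fate factor were called between the groups by title. Spink4 was 4.29-fold lower and Retnlb 2.76-fold lower on the arrays titled DSS than on those titled UT. Agr2 and Spdef were also lower there, so that 4 of 9 members were called, all lower on titled DSS, against a background of 31.7% (17.0% lower). By the treatment fields each of these signs turns. Other lists differed between the same arrays. The summed level (the sum of 2 to the power of each level) of 5 Paneth and small intestine markers was 19.7 and 19.1 on titled UT and 13.5 and 8.14 on titled DSS, and that of 4 membrane mucins was 42.7 and 48.7 against 78.9 and 88.2. Titled UT replicate 1 stood above replicate 2 in the summed level of monocyte and macrophage (302 against 168), fibroblast (228 against 134) and enteroendocrine markers (216 against 126). The mean levels of these lists lay closer, at 1.16 against 0.91, 2.54 against 2.45 and 1.41 against 1.14. Other lists went the other way, among them smooth muscle markers (summed level 722 against 854). The part of these lists in the WT calls was not tested.

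Spink4 had levels of 9.19 and 8.32 on the WT arrays titled UT and 6.61 and 6.70 on those titled DSS, and between 8.21 and 9.07 on the knockout arrays. The titled DSS pair therefore lay below all other arrays, an order whose share over all genes was not counted. The difference was -2.10 (SE 0.31, adjusted p = 0.00299), and it remained called without each of the 12 arrays in turn.

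Retnlb followed the same order, with 8.58 and 7.87 on titled UT, 6.65 and 6.86 on titled DSS and 7.71 to 8.73 in the knockouts. Its difference was -1.46 (SE 0.30, adjusted p = 0.00941), and adjusted p was 0.0584 without WT titled DSS replicate 1 and 0.0700 with the WT arrays fitted alone.

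Agr2 was at 9.37 and 8.65 on titled UT and 7.95 and 8.26 on titled DSS, a difference of -0.90 (SE 0.28, adjusted p = 0.0401). The call was lost under quantile normalization (-0.39, adjusted p = 0.204), with no filter, with the WT arrays fitted alone, and without WT titled UT replicate 1 (-0.54, adjusted p = 0.190), either titled DSS array or any of the 4 knockout DSS arrays. Spdef was at 3.49 and 3.85 on titled UT and 2.80 and 2.83 on titled DSS, a difference of -0.85 (SE 0.22, adjusted p = 0.0211). That call was lost under quantile normalization (adjusted p = 0.0565), with the WT arrays fitted alone (0.118) and without WT titled DSS replicate 1 (0.0916) or 2 (0.0831) or titled UT replicate 2 (0.0574).

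Atoh1 stood at -1.71 and -0.48 on the arrays titled UT and at -0.26 and -0.36 on those titled DSS. The titled UT arrays thus differed from each other more than the groups did, and the difference of 0.79 (SE 0.37, adjusted p = 0.133) did not pass. Without titled UT replicate 2 it was 1.41 (adjusted p = 0.00522). The same replicate pair stood apart in the products, with titled UT replicate 1 above replicate 2 in all 7 of them.

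Fcgbp was at 7.96 and 7.82 on titled UT and 8.30 and 8.58 on titled DSS, a difference of 0.55 (SE 0.20, adjusted p = 0.0657). The second probe, at 6.39 and 6.80 against 7.59 and 7.83, gave 1.11 (SE 0.20, adjusted p = 0.00621), so the probes of this gene did not give the same call. Fcgbp passed as the mean of its probes (0.83, adjusted p = 0.0134), with quantile normalization (1.26), with normexp background correction (0.58) and in the deposited value table (0.61). The differences of Tff3 (-0.30), Clca1 (-0.30) and Zg16 (-0.15) did not pass, with adjusted p of 0.446, 0.404 and 0.666.

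Whether the response to DSS differed between genotypes was tested as a difference of differences. Between the knockouts 0 of 9 members and 0 of 23240 genes passed in limma (0% background; 0 members and 1858 genes at an unadjusted p under 0.05). The 95% interval of this difference was -0.75 to 1.63 for Atoh1 and -0.37 to 1.06 for Spdef, so differences of that size are not excluded. The comparisons with WT share the 4 WT arrays and have the WT sign set by the label used, so they are given side by side for both readings.

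With WT read by titles, Spink4 differed by 1.96 (adjusted p = 0.0357) between the responses of ATF6aKO and WT, and Atoh1 by -2.25 (adjusted p = 0.0394), against a background of 7.65%. For ATF6bKO, Spink4 differed by 1.92 (adjusted p = 0.0263) and Retnlb by 1.92 (adjusted p = 0.0256), against 14.6%. Both products were lower on the titled DSS arrays of WT and were not called with DSS in either knockout. With WT read by treatment fields, the difference was -2.24 for Spink4 (adjusted p = 0.00821), -1.36 for Retnlb (0.0450) and -1.75 for Spdef (0.00630) in ATF6aKO, against 27.9%. In ATF6bKO it was -2.29 for Spink4 (0.00675), -1.41 for Spdef (0.0126) and 0.89 for Fcgbp (0.0454), against 29.3%. Spink4 was called in all 4 of these comparisons, with a sign that depended on the label. By treatment fields, Spink4 and Spdef were called without each of the 12 arrays in turn. Spink4 by titles was lost for ATF6aKO without either WT titled DSS array, either ATF6bKO DSS array or any ATF6aKO array (adjusted p up to 0.123), and for ATF6bKO without either titled DSS array, either ATF6bKO DSS array or ATF6bKO UT replicate 1 (up to 0.0848). Retnlb by titles was lost for ATF6bKO without either titled DSS array, ATF6bKO UT replicate 1 or ATF6bKO DSS replicate 2 (up to 0.0835). Atoh1 by titles kept its call only where a titled UT array was the one omitted (up to 0.133 without the others). Retnlb by treatment fields kept its call without titled UT replicate 2 or either ATF6bKO UT array (up to 0.126 without the others), and Fcgbp without titled UT replicate 1 or ATF6bKO UT replicate 2 (up to 0.148 without the others). With no filter on dim probes, all 4 calls by titles were lost (0.0788 for Atoh1, 0.0730 and 0.0516 for Spink4, 0.0503 for Retnlb), as were those of Retnlb (0.0777) and Fcgbp (0.0854) by treatment fields. Fitting the compared groups alone ended the 4 calls by titles (0.0697 to 0.0863) and that of Fcgbp (0.107).

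Genotype comparisons used treatment as a term. Genotype cannot be told apart from the slide in any of them, nor from the version of the array design in those with WT, and array brightness differed between genotypes without overlap. Over UT and DSS together, Fcgbp was 1.94-fold higher in ATF6aKO and 2.50-fold higher in ATF6bKO than in WT. Spdef was lower in both, by 1.59-fold and 1.83-fold. Tff3 was higher in ATF6bKO than in WT, and Clca1 higher in ATF6bKO than in ATF6aKO.

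For Fcgbp all 8 knockout arrays, at 8.93 to 9.81, lay above all 4 WT arrays, at 7.82 to 8.58. The share of all genes separated in this way was not counted. Before scaling the Fcgbp arrays overlapped, with processed signals of 216067 to 302215 in the knockouts and 170596 to 373610 in WT. The log2 difference was 0.96 (SE 0.16, adjusted p = 0.00370) for ATF6aKO and 1.32 (SE 0.18, adjusted p = 0.00326) for ATF6bKO. The second probe gave 1.47 (adjusted p = 0.00249) and 1.43 (adjusted p = 0.00526). Both probes were called in both comparisons, among 2 of 9 members called for ATF6aKO (background 35.3%) and 3 of 9 for ATF6bKO (background 29.4%).

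Spdef, whose signals before scaling were 1155 to 5579 in the knockouts and 5139 to 13047 in WT, differed by -0.67 (SE 0.17, adjusted p = 0.0182) in ATF6aKO and by -0.87 (SE 0.18, adjusted p = 0.0133) in ATF6bKO. The scale of these comparisons is uncertain, because in the deposited value table the median of all genes shifted by 0.58 and 0.61 and in the normexp fit by 0.12 and 0.34, against -0.07 and -0.02 here. In the value table Spdef differed by -0.01 and -0.23 and was not called, and relative to the median of all genes by -0.59 and -0.84, against -0.60 and -0.85 here. In ATF6aKO, the adjusted p of Spdef rose to 0.0609 when UT replicate 2 was omitted and to 0.0566 when DSS replicate 1 was. Fcgbp remained called under every alternative in both comparisons.

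Tff3 in ATF6bKO against WT differed by 0.76 (SE 0.24, adjusted p = 0.0493) and was called without WT titled UT replicate 1 only, among the 8 arrays left out in turn (adjusted p up to 0.120 without the others), and not with no filter (0.0773). Before scaling its signals ran the other way, at 135275 to 162000 in ATF6bKO and 201540 to 242513 in WT. Clca1 in ATF6bKO against ATF6aKO differed by 0.60 (SE 0.12, adjusted p = 0.0341, background 9.13%), with ATF6aKO arrays at 8.62 to 9.02 and ATF6bKO arrays at 9.14 to 9.79. These levels did not overlap, and the share of all genes without overlap here was not counted. The signals before scaling were 227570 to 243624 in ATF6aKO and 218311 to 230026 in ATF6bKO. The order of the Clca1 levels therefore came with the division by the 75th percentile. Quantile normalization gave 0.22 (adjusted p = 0.118), and of the 8 arrays only the omission of ATF6bKO UT replicate 1 kept the call (adjusted p 0.0565 to 0.0962 for the others), which was also lost with no filter (0.0519) and with all 12 arrays in the fit (0.0962). Relative to the median of all genes it was 0.54 here. Agr2, Zg16, Spink4, Retnlb and Atoh1 were not called in any of the 3 genotype comparisons.

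The counts of the lists that follow stand against the 13.3% of all genes that rose and the 15.8% that fell over both knockouts. Among 12 further products of goblet cells, 1 rose and 1 fell over both knockouts (median -0.08). These were Dmbt1, a scavenger protein of mucus (0.68, adjusted p = 0.0134), and Clca3b, a relative of Clca1 (-0.88, adjusted p = 0.0138). Of 4 membrane mucins, Muc1 rose (0.997, adjusted p = 0.0177). Of 23 genes of mucin glycosylation 3 rose and 2 fell (median -0.02), a share below the 29.1% of all genes called. The sialyltransferase St3gal1 rose by 1.26, the fucosyltransferase Fut2 by 0.87 and the core 1 synthase C1galt1 by 0.72, while the sialyltransferase St6galnac2 fell by 1.31 and B4galnt2, which makes the Sda antigen, fell by 1.03. The median over all genes was -0.01.

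Of 23 genes of ER folding and secretion in goblet cells, 6 fell and 0 rose (median -0.19). Cftr fell by 2.20 (adjusted p = 0.00284), Slc12a2 by 1.44 (0.00131) and Kcnn4 by 1.29 (0.000978), and these carry chloride or potassium and serve the fluid that hydrates mucus rather than folding. Tmed6, a cargo receptor of the early secretory pathway, fell by 2.05 (0.000792). In limma 8 of these 23 genes were lower and 2 higher on WT arrays titled DSS than on those titled UT, where 31.7% of all genes were called.

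Among 28 further regulators of secretory fate and Notch signalling, 12 fell and 2 rose over both knockouts (median -0.44). Hes6, which opposes Hes1, fell by 1.07 (adjusted p = 0.00165), Sox4 by 1.06 (0.00926), Foxa2, a forkhead factor of goblet cells, by 1.05 (0.00558) and Neurog3, the factor of the enteroendocrine lineage, by 0.94 (0.0155). The receptors Notch3 and Notch2 rose by 0.54 and 0.41. On WT arrays titled DSS against titled UT, 6 of the 28 were higher and 4 lower, close to the 31.7% of all genes called there, and the median was 0.30. In the test of the response against WT by titles, 4 of the 28 were lower and 0 higher for ATF6aKO (background 7.65%). For ATF6bKO, 6 were lower and 0 higher (background 14.6%). By the treatment fields the WT sign turns, so these counts hold for the titles only and do not set the knockouts apart from WT. The counts by treatment fields are not given for this list.

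Of 16 signals and receptors of type 2 immunity and IL-22 that act on goblet cells, 8 rose and 0 fell (median 0.61). Il22, whose product drives epithelial repair, was well above background on 4 of 4 knockout DSS arrays and on 0 of 4 knockout UT arrays. Its mean level was -3.91 with DSS against a measured -8.04 in UT. Its probe was not well above background on any UT array, by title for WT, so it was kept only through groups labelled DSS. The limma test on these measured levels gave an adjusted p of 0.00158, which is therefore no support for the rise. The count of 8 includes Il22. As a bound with no test of its own, Il22 was at least 3.77-fold higher with DSS. For this, each UT array was taken at its lowest signal well above background or at the value of the probe, whichever was higher. The growth factor Areg rose by 1.88 (0.00314), the alarmin Il33 by 1.43 (0.00997) and the cytokine receptor chain Il2rg by 1.44 (0.0116).

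**Figure D4:**
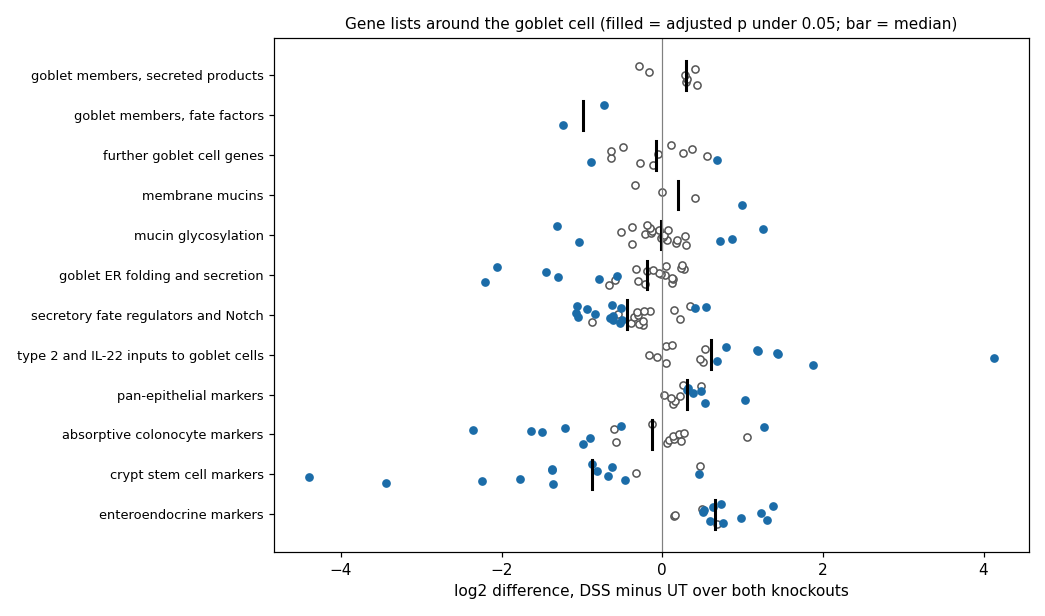
Log2 difference between DSS and UT over both knockouts for each gene of 12 lists; filled points had an adjusted p under 0.05 and bars are list medians. The medians are 0.30 for the secreted products, -0.98 for the fate factors, -0.44 for further regulators of secretory fate and -0.88 for crypt stem cell markers; the point at 4.13 is Il22, a fitted value with no UT array above background.

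Markers of other cells moved in the same comparison. Crypt stem cell markers had 12 of 15 lower and 1 higher (Nkd1, an inhibitor of Wnt signalling, 0.45, chosen after its value was seen), with Lgr5 below background on both ATF6bKO DSS arrays. Their summed level was 23.6 to 25.7 on knockout UT arrays and 12.9 to 17.0 on knockout DSS arrays. Enteroendocrine markers, from another secretory lineage that needs Atoh1, had 10 of 14 higher and 0 lower (median 0.66). The list of secretory fate regulators shares Sox9 with the stem cell list, Elf3 with the pan-epithelial list and Neurod1 with the enteroendocrine list.

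Pan-epithelial markers had 6 of 13 higher and 0 lower (median 0.30), with a summed level of 1462 to 1678 on knockout UT and 1971 to 2022 on knockout DSS arrays. On this scale the median of the secreted products equalled theirs to 2 decimals, and the part of epithelial content in it was not tested. Absorptive colonocyte markers had 7 of 19 lower and 1 higher (Slc51b, a subunit of a bile acid transporter, 1.27, chosen after its value was seen), with a summed level of 1442 to 1876 in UT and 1524 to 1873 in DSS. Monocyte and macrophage markers had 13 of 14 higher, with summed levels of 151 to 163 in UT and 328 to 453 in DSS. Neutrophil markers had 13 of 14 higher and Cd177 lower, at 3.04 to 5.23 in UT. With DSS they were at 7.35 and 5.56 in ATF6aKO and at 29.1 and 29.3 in ATF6bKO. Camp, Clec4e and Trem1 were not well above background on the UT arrays of either knockout, nor were Csf3r and S100a8 in ATF6bKO. Clec4e was not well above background on the WT arrays titled UT either, so it was kept only through groups labelled DSS. The count of 13 includes Clec4e and is therefore not independent of the filter. Fibroblast markers had 10 of 11 higher, at 152 to 210 in UT and 252 to 346 in DSS. The part of these other cells in the fall of Atoh1 and Spdef was not tested.

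Of 8 squamous epithelium markers tested, 5 rose in ATF6bKO, where 12.9% of all genes were called in either direction. Krt4 was not well above background on either array of any other group, so it was kept only through ATF6bKO DSS. Krtdap was not well above background on the UT arrays of either knockout. The count is therefore not independent of the filter. The summed level of the 8 markers was 70.6 on ATF6bKO DSS replicate 2 and 6.50 on replicate 1, against 2.46 to 7.37 on the other knockout arrays. Without ATF6bKO DSS replicate 2, Atoh1 differed by -1.31 and Spdef by -0.82 over both knockouts. Replicate 1 also had a raised mean level of the squamous markers, -1.23 against -3.56 to -2.68 on the ATF6aKO and ATF6bKO UT arrays. Leaving out replicate 2 therefore does not remove the squamous markers, and their part in the fall of Atoh1 and Spdef was not tested.

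Over the 12 arrays, with the mean of each genotype removed, the named genes most like Atoh1 were Stard3 (r = 0.98), Large2 (0.97), Zfp239 (0.97), Kcnk5 (0.96) and Rpl14 (0.96). Tff3, taken in place of Muc2 after that gene proved unmatched, was most like Nub1 (0.96), Laptm4a (0.96), Nedd4 (0.93), Lgals4 (0.92) and Mael (0.92). These were the highest of 14595 named genes over arrays that share slide and treatment, and they are descriptions only.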

How the data were processed

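Levels came from 12 deposited scanner files. Per the file headers, the authors quantified each array with Agilent Feature Extraction (version 10.7.1.1, per the submitters' processing notes), and the intensity used, the processed signal, had background subtracted and no scaling between arrays. Control spots (leaving 43379 of 45018 spots) and 54 to 108 outlier spots per array were left out. Each log2 processed signal had the log2 75th percentile of its array subtracted, and spots of a probe were averaged. Probes well above background on both arrays of at least 1 group were kept (30428 of 41174), and a gene was represented by its probe of highest mean. Accessions were named through a RefSeq table of GRCm38.p6, which matched 25193 probes (61.2%) to 17332 symbols. Per the file headers, WT arrays carry design version 1 and knockout arrays version 2, which disagree on the accession of 5471 probes.

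Differences were tested with limma 3.58.1 in R 4.3.3 (lmFit and eBayes), with Benjamini-Hochberg adjustment over all 23240 genes and a threshold of 0.05, in 12 comparisons. DSS comparisons within a genotype and differences of responses came from 1 fit of 12 arrays. The comparison over both knockouts and the genotype comparisons used 8 arrays with the other factor as a term. The fits were tested on simulated data with independent normal noise. Those data held no differences between slides or in array brightness, so the test does not cover these. The precision is limited by 2 arrays per group.

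The deposited value table holds log2 values of the same arrays, centred on each probe. In 8 of its 12 columns the values are those of another sample's array: WT columns are exchanged between the WT groups and ATF6aKO columns between replicates, so it served only as an alternative, each column taken as the array it equals. Column medians were -0.33, -0.28, -0.20 and -0.47 for the WT columns, 0.22, 0.14, 0.09 and 0.24 for ATF6bKO and 0.01, 0.03, 0.12 and 0.07 for ATF6aKO. Its scaling between arrays stays unknown, and no source says which of these assignments, of columns or of scanner files, is right.

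The members, the gene lists and the tests were chosen with earlier results of these data known, so a list's direction is not independent evidence. The text names all members, from each pathway list the 4 (or fewer) genes with the largest called change in each direction over both knockouts, the 5 named genes most correlated with Atoh1 and Tff3 (in place of Muc2), and Atf6 and Atf6b. Genes named otherwise are marked as such, stand for a whole list or are named for their detection above background, as Lgr5 is. Cd177 was named after its value was seen, as the neutrophil marker that went the other way.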

Additional observations from a re-analysis of the deposited data

Results flagged for a closer look

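The following differences between the responses of a knockout and of WT passed the test of the difference itself (limma, adjusted over all genes). By the WT titles they were Spink4 (1.96, SE 0.43) and Atoh1 (-2.25, SE 0.52) for ATF6aKO, and Spink4 (1.92, SE 0.43) and Retnlb (1.92, SE 0.43) for ATF6bKO. By the WT treatment fields they were Spink4 (-2.24, SE 0.43), Retnlb (-1.36, SE 0.43) and Spdef (-1.75, SE 0.32) for ATF6aKO, and Fcgbp (0.89, SE 0.28), Spink4 (-2.29, SE 0.43) and Spdef (-1.41, SE 0.32) for ATF6bKO. Adjusted p lay between 0.00630 and 0.0454. All rest on the same 4 WT arrays, whose labels conflict and which lay on a slide of their own.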

How the results depend on the processing

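The larger changes in the counts of members called, and those to or from 0, were as follows, with the count as reported in brackets. Smaller changes are left out. Among these are the added calls over both knockouts of Agr2 with normexp correction and of Zg16 with quantile normalization. Normexp background correction gave 2 for DSS in ATF6aKO (1), 4 for the response of ATF6aKO (2) and 4 for that of ATF6bKO (2) against WT by titles, and 2 for ATF6bKO against ATF6aKO (1). Quantile normalization gave 4 for the response of ATF6bKO against WT by titles and 0 for ATF6bKO against ATF6aKO. Without a filter on dim probes 0 members were called for DSS in ATF6aKO, for both responses against WT by titles and for ATF6bKO against ATF6aKO, and with a stricter filter 2 for DSS in ATF6aKO and 4 for the response of ATF6bKO against WT by titles. The deposited value table gave 0 for DSS in ATF6aKO and 5 for each knockout against WT (2 and 3). There Clca1 in ATF6aKO against WT turned from -0.01 to 0.64 (adjusted p = 0.0262), the only sign that turned where either value passed; 80 of 2016 signs turned where neither did. Fitting other arrays (the compared groups alone, or all 12 for the 8-array fits) gave 0 for DSS in ATF6aKO, 1 in ATF6bKO (0) and 1 in WT (4), 0 for both responses by titles, 4 and 7 for ATF6aKO and ATF6bKO against WT, and 0 between the knockouts. Leaving out 1 array gave 0 to 2 for DSS in ATF6aKO, 0 to 1 in ATF6bKO, 1 to 4 in WT, 2 to 3 over both knockouts, 0 to 0 for the difference between knockout responses, 0 to 4 for each response against WT by titles and 2 to 3 by treatment fields, 1 to 4 for ATF6aKO and 2 to 6 for ATF6bKO against WT, and 0 to 2 between the knockouts. The causes were not tested. Over both knockouts normexp correction also turned the split of all calls from 3082 higher and 3683 lower to 4939 and 3429, with a median shift of 0.11.

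Samples share replicate numbers, but same-numbered samples did not deviate together (r of 0.01 in WT, -0.02 in ATF6bKO and 0.07 in ATF6aKO), so the numbers do not pair them. With the replicate number as a block, 0 members were called for DSS in ATF6aKO, 0 for the response of ATF6aKO against WT by titles, 1 for ATF6aKO against WT and 0 between the knockouts. Among the other comparisons it also moved Agr2 in WT (adjusted p = 0.0789), Retnlb for the response of ATF6aKO (0.0567) and Fcgbp for that of ATF6bKO (0.0684) by treatment fields, and Tff3 for ATF6bKO against WT (0.115) above 0.05.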
